A study of Homo sapiens with 12 samples.

Results

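The 31 genes described here encode subunits of the proteasome: 14 of the 20S core (PSMA1 to PSMA7 and PSMB1 to PSMB7) and 17 of the 19S cap (PSMC1 to PSMC6, PSMD1 to PSMD4, PSMD6 to PSMD8 and PSMD11 to PSMD14). They were chosen by name, with no measured value in the rule, from the 22379 genes of a table of spike-in-normalised mRNA abundance, and each was found once. All 31 passed the filter on low values (an untreated mean of 10 or more) and were among the 13811 genes tested.

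The cells were U2OS, a line from a human osteosarcoma, and poly(A)-selected RNA was sequenced in 12 libraries. The cells carried Cas9 with a nontargeting guide (NONT) or with a guide against NUP93, a nuclear pore protein (NUP93-KO), or against EXOSC5, a subunit of the RNA exosome, which degrades RNA from its 3′ end (EXOSC5-KO). The plasmid was transfected transiently and cells were selected with puromycin, so each knockout was a pool and not a clone, and edited and unedited cells may be mixed in it. Each of the 3 genotypes received vehicle (DMSO, called untreated) or 1 μM triptolide, which blocks initiation by RNA polymerase II through the TFIIH helicase XPB, for 8 h, with 2 libraries in each of the 6 groups. Because the RNA of many cells was pooled, a smaller amount in every cell and a loss from some of the cells cannot be told apart.

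The proteasome is the barrel-shaped protease that degrades ubiquitin-tagged proteins in the cytosol and nucleus. Its 20S core is built of outer alpha rings, which gate the entrance, and inner beta rings, in which PSMB5, PSMB6 and PSMB7 carry the active sites. The 19S cap is made of a base, with a ring of ATPases (PSMC genes) that unfold substrates and the large subunits PSMD1 and PSMD2, and of a lid that surrounds the base and holds the deubiquitinase PSMD14. Subunits are needed in fixed proportions, and their genes are known to be transcribed together under the factor NFE2L1 when proteasome activity falls short.

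Library depth was about 8.60 M to 11.96 M reads, and log2 values of replicates correlated at r = 0.964 to 0.970 across genes. The spike-in scale was uneven in NONT: the median log2 difference between the first and second replicate was −0.51 without drug and 0.25 under triptolide, and between −0.14 and 0.11 in the other 4 groups. NUP93 was at 1395 and 1432 in untreated NUP93-KO against 1753 and 2489 in untreated NONT, and EXOSC5 at 215.9 and 147.7 in untreated EXOSC5-KO against 299.4 and 481.3. Of 7 osteosarcoma and mesenchymal markers, 6 passed the filter on low values, BGLAP being the exception, as did 2 of 3 epithelial and 0 of 3 leukocyte markers, and CD3E was listed at 0 in all 12 libraries.

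Without drug, proteasome mRNAs were abundant. The mean over the 6 untreated libraries ranged from 1089 for PSMC2, an ATPase, to 18877 for PSMD2, the base scaffold that binds ubiquitin-like proteins, with a median of 2609 against 345 over all genes tested. Together the 31 genes made up 0.756% to 0.802% of the gene sum of the untreated libraries. These values grow with transcript length. Divided by the length of the canonical transcript, the highest levels were those of PSMD2, at 6480 per kb, and PSMA7, an alpha-ring subunit, at 6156 per kb, and the lowest those of PSMC1, at 379 per kb, and PSMC2, at 401 per kb. The low end depends on the transcript chosen, since the canonical forms of PSMA4, PSMB2, PSMC1 and PSMD12 are 4356 to 4426 nt long and those of the 31 genes have a median of 1540 nt. The level of PSMC4 is uncertain, because a second ID absent from the annotation (ENSG00000281221) held identical values in every library and the reads may have been split between them.

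**Figure D1:**
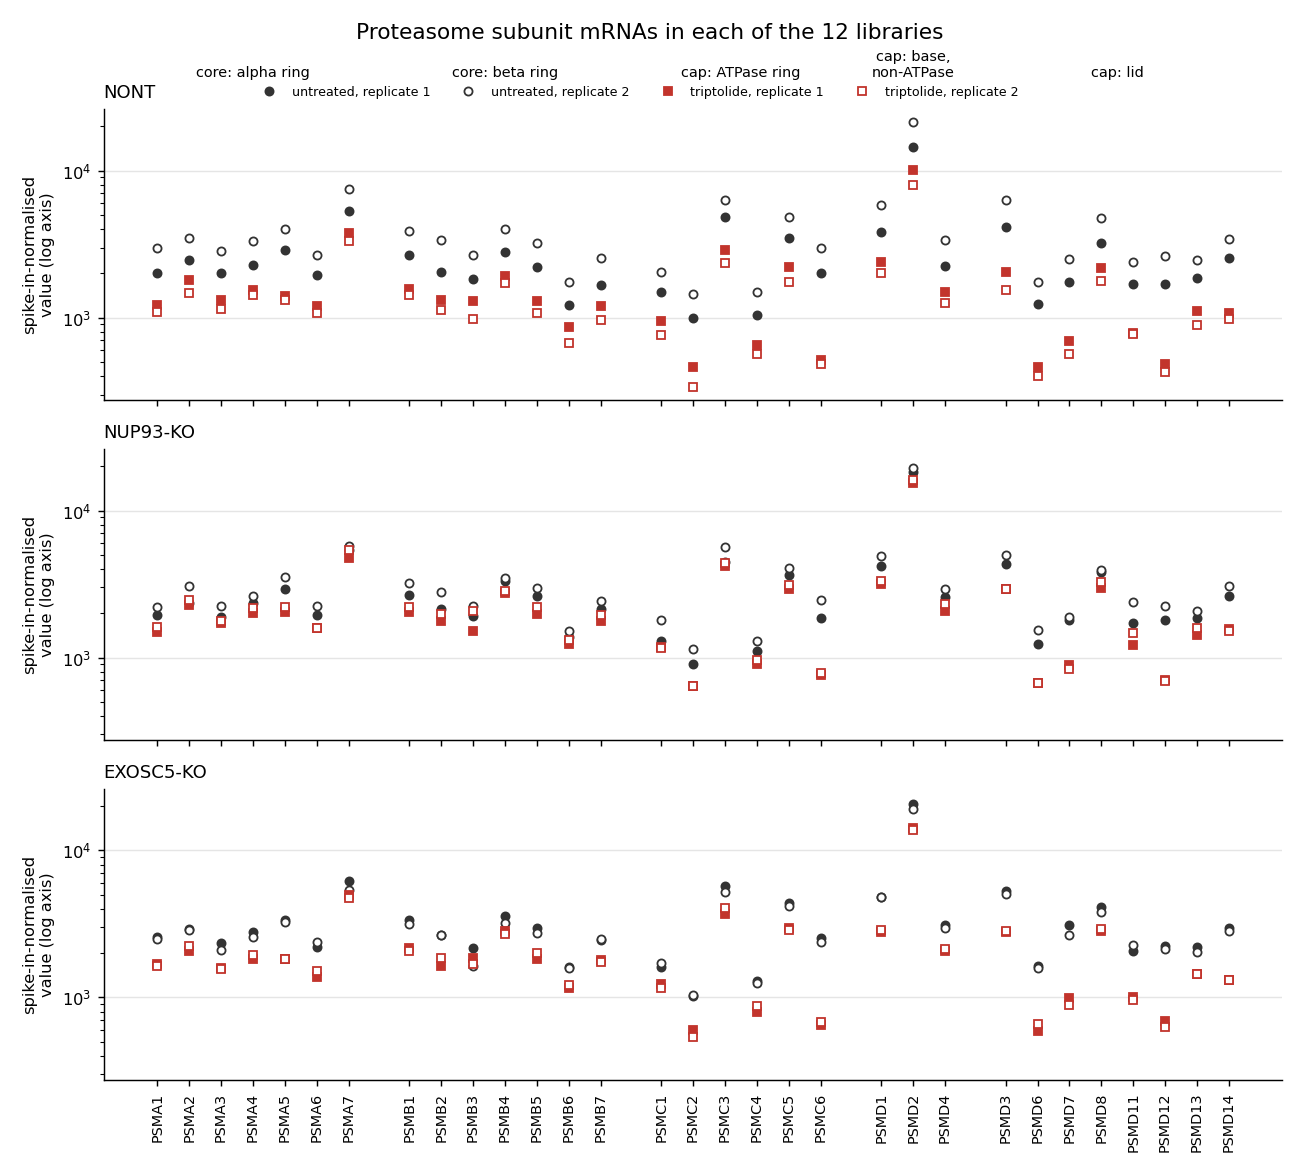
Spike-in-normalised value (log axis) of each proteasome gene in every library, in panels by genotype, with circles for untreated and squares for triptolide libraries, filled for replicate 1 and open for replicate 2. PSMD2 is the highest gene in all panels, and the treated values of PSMC6, PSMD6, PSMD7 and PSMD12 lie farthest below the untreated ones.

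In NONT cells, all proteasome mRNAs fell after 8 h of triptolide, but most fell less than the typical gene. Of the 31 genes, 31 were called lower (limma, adjusted p under 0.05), against 90.0% of all genes tested, and for 31 the treated pair of libraries was below the untreated pair, against 94.8% of all genes. The median log2 fold change was −1.08 over the proteasome genes and −1.62 over all genes, a difference of 0.54. Relative to the median gene, 27 of the 31 were higher and 4 lower. Such counts, here and in the knockouts, rest on the filter on low values. The responses of the 31 genes lay close together, with an interquartile range of 0.37 on the log2 scale against 1.60 for all genes. All genes include many of lower abundance (median untreated mean 345 against 2609), and genes of like abundance were not compared.

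In NUP93-KO cells, 10 of the 31 genes were called lower by the same test, against 55.1% of all genes, and in EXOSC5-KO cells 24 were, against 64.3%. None was called higher in any genotype. The treated pair was below the untreated pair for 29 genes in NUP93-KO, all but PSMA2 and PSMB3 (79.1% of all genes), and for 30 in EXOSC5-KO, all but PSMB3 (88.0%). The median was −0.39 against −0.92 for all genes with the NUP93 guide and −0.58 against −1.08 with the EXOSC5 guide. Set against the median gene of its own genotype, the proteasome median was therefore 0.52 higher in NUP93-KO and 0.50 higher in EXOSC5-KO, with 27 and 25 of 31 genes above it. The counts in the knockouts rest on single libraries. That of NUP93-KO rose without either untreated NONT library, which left its own responses as they were. It dropped without replicate 2 of untreated or replicate 1 of treated NUP93-KO. That of EXOSC5-KO dropped when any of its own libraries was left out. The shares of all genes called in those fits are not given.

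Proteasome mRNAs fell on the spike-in scale, and most rose only on scales that take out most of a change common to all genes. On the spike-in scale all 31 fold changes were below 0 in each genotype. They were also all below 0 with each library rescaled to the same sum of mitochondrial mRNAs. A rise with the same sum of gene values is a rise in share of the library. With each library rescaled to the same sum of gene values, 21 genes were called higher after triptolide in NONT, 15 in the NUP93 knockout and 18 in the EXOSC5 knockout, against 15.2%, 13.9% and 14.7% of all genes, and 6, 5 and 6 were called lower, against 38.2%, 39.3% and 36.8%. On this scale the median over all genes was between −0.36 and −0.29, so the response relative to the median gene is given below. The proteasome genes took 0.863% to 0.893% of the gene sum in the 6 treated libraries, above all 6 untreated ones.

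**Figure D2:**
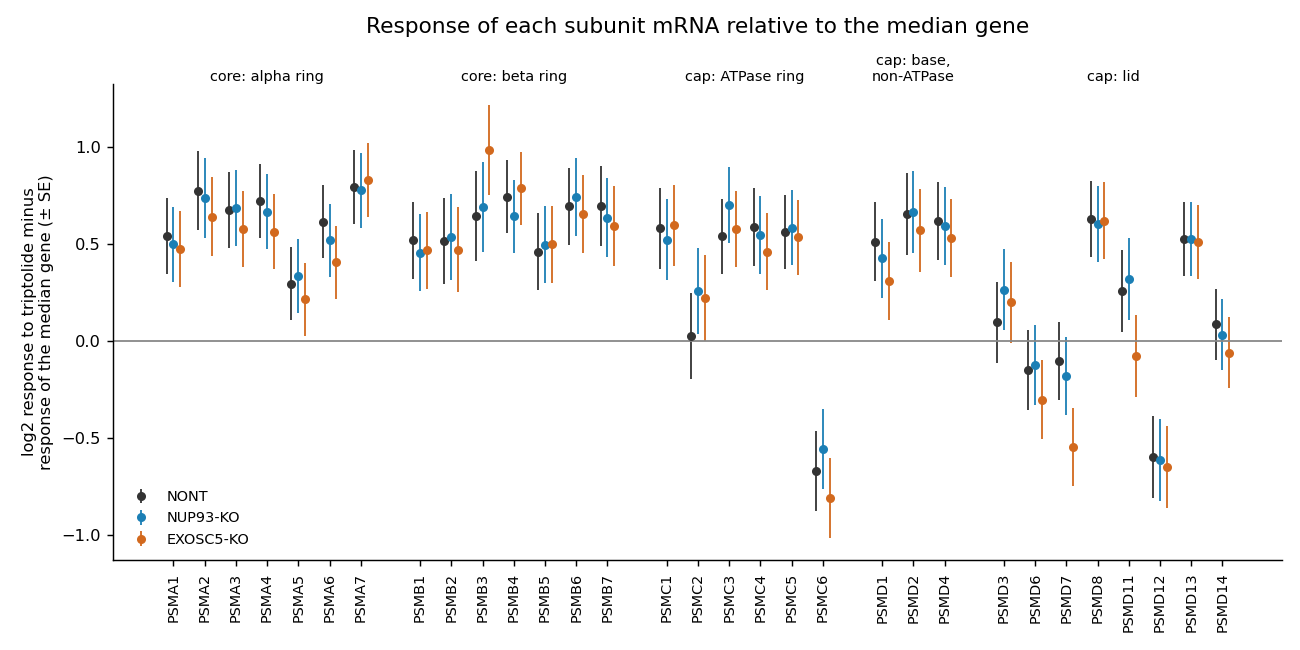
Log2 response to triptolide of each proteasome gene minus that of the median gene of the same genotype, with the limma SE of the gene's response (3 genotypes, 2 libraries per group), ordered by place in the complex. All 14 core genes lie above 0 in each genotype (with no filter on low values, all but PSMA5 in NONT and EXOSC5-KO), while PSMC6, PSMD6, PSMD7 and PSMD12 of the cap lie below it.

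The 20S core was the more even part. Its 14 genes all lay above the median gene in each genotype, by 0.29 to 0.79 in NONT, by 0.33 to 0.77 in the NUP93 knockout and by 0.21 to 0.98 in the EXOSC5 knockout. This rests on the filter on low values: with none, PSMA5 lay at −0.010 in NONT and −0.017 in EXOSC5-KO, below the median gene, and the median of the 31 genes lay above it by 0.23 in NONT, 0.31 with the NUP93 guide and 0.27 with the EXOSC5 guide. The alpha ring and the beta ring had similar medians, −0.95 and −0.98 in NONT, −0.25 and −0.28 with the NUP93 guide and −0.51 and −0.49 with the EXOSC5 guide. Genes called lower numbered 14 of 14 in NONT, 1 of 14 (PSMA5) in NUP93-KO and 9 of 14 in EXOSC5-KO. Over all genes the shares were 90.0%, 55.1% and 64.3%.

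Among the alpha-ring genes, PSMA7 fell least and PSMA5 fell most in NONT. PSMA7 (ENSG00000101182, chromosome 20, 62136733 to 62143440 on the minus strand of GRCh38) was at 5325 and 7447 in untreated NONT and at 3797 and 3309 after triptolide, a log2 fold change of −0.83 ± 0.19 (SE, limma adjusted p = 0.000800). In NUP93-KO it was at 5423 and 5768 without drug and 4753 and 5389 with it, and in EXOSC5-KO at 6187 and 5381 against 5003 and 4721. The treated values of the knockouts were thus close to the untreated ones, and the changes of −0.14 ± 0.19 and −0.25 ± 0.19 did not pass the test (adjusted p = 0.552 and 0.259). PSMA7 lay above the median gene by 0.79 in NONT, by 0.77 in the NUP93 knockout and by 0.83 in the EXOSC5 knockout.

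PSMA5 (ENSG00000143106, chromosome 1, 109399042 to 109426448, minus strand) has a long canonical 3′ UTR of 2971 nt. It was at 2895 and 4036 in untreated NONT and 1405 and 1322 after triptolide, at 2912 and 3518 against 2054 and 2215 in NUP93-KO, and at 3384 and 3268 against 1833 and 1825 in EXOSC5-KO. The groups did not overlap in any genotype. PSMA5 fell by 1.33 ± 0.19 in NONT (adjusted p = 7.52e-06), by 0.59 ± 0.19 in NUP93-KO (adjusted p = 0.0144) and by 0.86 ± 0.19 in EXOSC5-KO (adjusted p = 0.000813).

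The catalytic subunits of the beta ring were PSMB5, with chymotrypsin-like activity and the main target of clinical proteasome inhibitors, PSMB6, with caspase-like activity, and PSMB7, with trypsin-like activity. PSMB5 (ENSG00000100804, chromosome 14, 23016543 to 23035230, minus strand) was at 2214 and 3204 in untreated NONT and 1303 and 1084 in treated NONT, at 2633 and 2981 against 1982 and 2200 in NUP93-KO, and at 2986 and 2721 against 1815 and 2007 in EXOSC5-KO. Its log2 fold change was −1.16 ± 0.20 in NONT (adjusted p = 5.03e-05), −0.42 ± 0.20 in NUP93-KO (0.0814) and −0.58 ± 0.20 in EXOSC5-KO (0.0179). It thus fell in NONT and EXOSC5-KO, and the smaller difference in NUP93-KO, though its libraries did not overlap, did not pass the test.

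PSMB6 (ENSG00000142507, chromosome 17, 4796144 to 4798502, plus strand) was at 1227 and 1740 in untreated NONT and 870.3 and 676.5 in treated NONT. The same gene was at 1376 and 1525 against 1239 and 1320 in NUP93-KO, and at 1597 and 1573 against 1157 and 1211 in EXOSC5-KO. It fell by 0.93 ± 0.20 in NONT (adjusted p = 0.000423), and its changes of −0.18 ± 0.20 in NUP93-KO and −0.42 ± 0.20 in EXOSC5-KO did not pass (0.471 and 0.0741).

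PSMB7 (ENSG00000136930, chromosome 9, 124353465 to 124415444, minus strand) was at 1661 and 2550 in untreated NONT and 1209 and 969.3 in treated NONT, at 2133 and 2406 against 1782 and 1942 in NUP93-KO, and at 2443 and 2495 against 1789 and 1736 in EXOSC5-KO. It fell in NONT, by 0.93 ± 0.21 (adjusted p = 0.000543), and in EXOSC5-KO, by 0.49 ± 0.21 (0.0477), and its change in NUP93-KO was −0.28 ± 0.21 (0.257). Relative to the median gene, the 3 catalytic subunits were higher by 0.46 to 0.69 in NONT, 0.49 to 0.74 in NUP93-KO and 0.50 to 0.65 in EXOSC5-KO, within the range of the other core genes.

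The smallest fall of the beta ring in NONT was that of PSMB4 (ENSG00000159377, chromosome 1, 151399560 to 151401937, plus strand), a structural subunit, at 2807 and 3988 without and 1932 and 1712 with triptolide, a log2 fold change of −0.88 ± 0.19 (adjusted p = 0.000405). It was at 3306 and 3471 against 2732 and 2855 in NUP93-KO (−0.28 ± 0.19, adjusted p = 0.226) and at 3588 and 3205 against 2838 and 2710 in EXOSC5-KO (−0.29 ± 0.19, 0.180). PSMB3, a structural subunit named after its values were seen, was the least changed proteasome gene in EXOSC5-KO: 2177 and 1630 without drug and 1853 and 1680 with it, overlapping values and a log2 fold change of −0.09 ± 0.23 (adjusted p = 0.721).

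The 19S cap was more spread out. Its base followed the core, with 8 of 9 genes above the median gene in each genotype. Its lid did not: 5 of 8 lid genes were above the median gene in NONT and NUP93-KO and 3 of 8 in EXOSC5-KO, with medians of −1.53, −0.77 and −1.14, which differed from the median gene by 0.09, 0.15 and −0.07. These counts and differences for base and lid rest on the filter on low values. Without it PSMA5, at 0.29 in NONT, dropped below the median gene. So do cap genes nearer to it in NONT, such as PSMC2 (0.03), PSMD14 (0.08) and PSMD3 (0.10). Genes of the cap called lower numbered 17 of 17 in NONT, 9 of 17 in NUP93-KO and 15 of 17 in EXOSC5-KO. Among all genes tested, 90.0%, 55.1% and 64.3% were called lower.

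The same 4 genes had the deepest falls in each genotype: PSMC6, an ATPase of the base, and PSMD6, PSMD7 and PSMD12 of the lid. PSMC6 (ENSG00000100519, chromosome 14, 52707178 to 52728590, plus strand) was at 2020 and 2986 in untreated NONT and 515.2 and 487.0 after triptolide, at 1859 and 2470 against 755.9 and 782.4 in NUP93-KO, and at 2538 and 2376 against 649.2 and 679.1 in EXOSC5-KO. Treated libraries kept 20.4%, 35.9% and 27.1% of the untreated level in the 3 genotypes. The log2 fold changes of PSMC6 were −2.29 ± 0.21 (adjusted p = 4.16e-08), −1.48 ± 0.21 (1.27e-05) and −1.89 ± 0.21 (8.21e-07), or −0.67, −0.56 and −0.81 relative to the median gene.

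PSMC4 (ENSG00000013275, chromosome 19, 39971165 to 39981764, plus strand), an ATPase of the same ring, fell least of the PSMC genes in NONT. It was at 1041 and 1494 without drug and 649.4 and 568.8 with it in NONT (−1.04 ± 0.20, adjusted p = 0.000165), at 1114 and 1301 against 900.0 and 955.2 in NUP93-KO (−0.38 ± 0.20, 0.124) and at 1296 and 1253 against 794.8 and 869.2 in EXOSC5-KO (−0.62 ± 0.20, 0.0134). PSMC6 thus stood apart from its ring: the next deepest of the 6 ATPase genes, PSMC2, was at −1.60 in NONT, −0.66 with the NUP93 guide and −0.85 with the EXOSC5 guide.

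PSMD12 (ENSG00000197170, chromosome 17, 67337916 to 67366605, minus strand), a structural lid subunit, was at 1699 and 2629 in untreated NONT and 483.9 and 425.1 in treated NONT, at 1810 and 2251 against 701.0 and 690.3 in NUP93-KO, and at 2228 and 2142 against 694.2 and 628.4 in EXOSC5-KO. Its log2 change was −2.22 ± 0.21 (adjusted p = 7.82e-08), −1.54 ± 0.21 (1.05e-05) and −1.72 ± 0.21 (2.72e-06). PSMD8 (ENSG00000099341, chromosome 19, 38374563 to 38383850, plus strand), the last subunit to join the lid, fell least among lid genes in NONT, from 3235 and 4758 to 2187 and 1775 (−0.99 ± 0.20, adjusted p = 0.000207). In NUP93-KO it was at 3827 and 3944 against 2977 and 3262 (−0.32 ± 0.20, 0.185) and in EXOSC5-KO at 4129 and 3800 against 2848 and 2926 (−0.46 ± 0.20, 0.0520). The lid thus ran from −2.22 to −0.99 in NONT, where the core ran from −1.33 to −0.83.

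PSMD6 and PSMD7 were named after their values were seen. PSMD7, the MPN-domain partner of the deubiquitinase PSMD14, was at 1738 and 2492 in untreated NONT against 693.0 and 568.5 after triptolide, at 1804 and 1895 against 883.3 and 838.0 in NUP93-KO, and at 3111 and 2658 against 984.3 and 881.3 in EXOSC5-KO. Its log2 change was −1.73 ± 0.20, −1.10 ± 0.20 and −1.63 ± 0.20 (adjusted p = 7.98e-07, 0.000182 and 2.99e-06). PSMD6, a structural lid subunit, was at 1240 and 1756 against 462.3 and 402.6 in NONT, at 1243 and 1549 against 674.3 and 669.8 in NUP93-KO and at 1638 and 1593 against 586.8 and 655.6 in EXOSC5-KO, with log2 fold changes of −1.77 ± 0.20, −1.04 ± 0.20 and −1.38 ± 0.20 (adjusted p = 7.14e-07, 0.000346 and 2.00e-05). Neither gene's treated values overlapped the untreated ones. All 4 of these genes were also called lower with the same total per library in each genotype. So was PSMD14 of the lid, by smaller amounts (−0.20, −0.32 and −0.34).

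The non-ATPase subunits of the base behaved like the core. PSMD2 (ENSG00000175166, chromosome 3, 184299198 to 184309050, plus strand) was at 14436 and 21300 without and 10088 and 7993 with triptolide in NONT (−0.97 ± 0.21, adjusted p = 0.000481), at 18260 and 19495 against 15420 and 16223 in NUP93-KO (−0.25 ± 0.21, 0.326) and at 20617 and 19154 against 14184 and 13774 in EXOSC5-KO (−0.51 ± 0.21, 0.0446). PSMD1 (ENSG00000173692, chromosome 2, 231056845 to 231173116, plus strand), the largest base subunit, was at 3830 and 5873 against 2403 and 2008 in NONT (−1.11 ± 0.20, adjusted p = 9.36e-05), at 4220 and 4899 against 3148 and 3306 in NUP93-KO (−0.49 ± 0.20, 0.0473) and at 4797 and 4830 against 2782 and 2877 in EXOSC5-KO (−0.77 ± 0.20, 0.00345). PSMD1 was called lower in all 3 genotypes and PSMD2 in NONT and EXOSC5-KO.

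The median response of the core was higher than that of the cap in each genotype, by a log2 difference of 0.15 in NONT, 0.21 with the NUP93 guide and 0.26 with the EXOSC5 guide. Over the 4 ways to pair 1 treated and 1 untreated library the difference was 0.16 to 0.19, 0.11 to 0.32 and 0.18 to 0.31 in the same order. In each library, the median log2 level per kb of the core minus that of the cap was 0.65 and 0.75 in untreated NONT, 0.72 and 0.80 in untreated NUP93-KO and 0.68 and 0.58 in untreated EXOSC5-KO. After triptolide it was 0.86 and 0.87, 0.92 and 0.90, and 0.88 and 0.93. The 6 treated libraries thus lay above all 6 untreated ones, a shift of the balance of core over cap mRNA that does not depend on the spike-in scale. With the median length of the protein-coding transcripts in place of the canonical one, the untreated libraries were at 0.40 to 0.62 and the treated ones at 0.98 to 1.16. The share of the gene sum was 0.286% to 0.304% for the core without drug and 0.352% to 0.385% with it, and 0.462% to 0.497% against 0.506% to 0.530% for the cap.

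**Figure D3:**
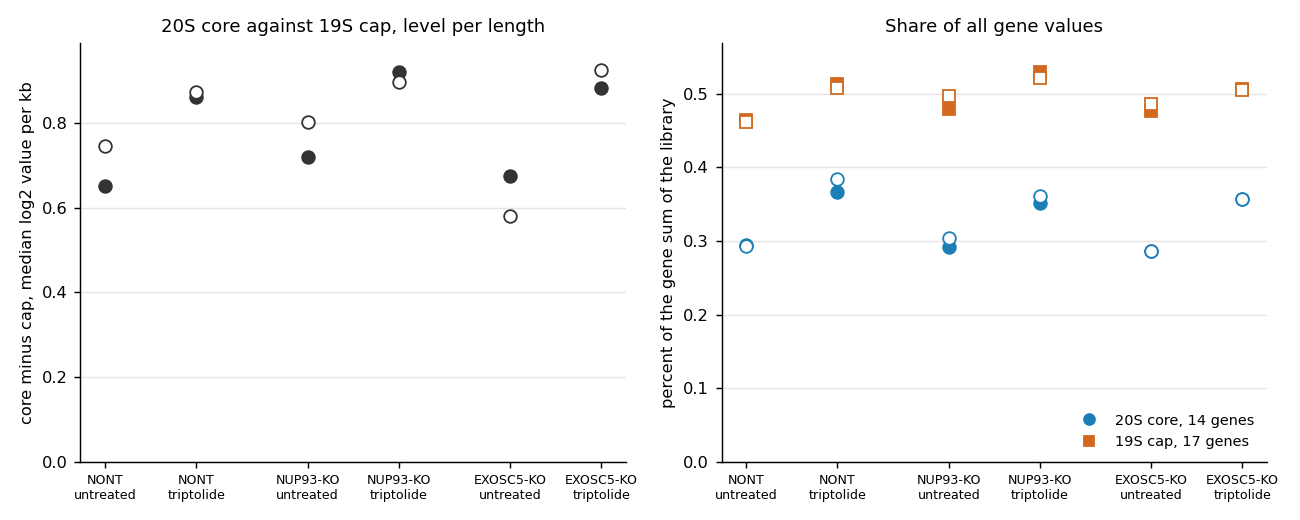
Left, median log2 value per kb of the 14 core genes minus that of the 17 cap genes in each library; right, percent of the gene sum of each library held by the core (circles) and the cap (squares), with filled symbols for replicate 1 and open ones for replicate 2. All 6 treated libraries, at 0.86 to 0.93, lie above the 6 untreated ones, at 0.58 to 0.80.

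Without drug, no proteasome mRNA of either knockout passed the test against NONT. The count was 0 of 31 in NUP93-KO against NONT, where 0.0217% of all genes were called by limma, and 0 of 31 in EXOSC5-KO, where 0.521% were. At an unadjusted p under 0.05 the counts were 0 and 1, against 4.20% and 8.49% of all genes. The fold changes ran from −0.24 to 0.14 in NUP93-KO and from −0.23 to 0.47 in EXOSC5-KO, the upper end being PSMD7 (0.47 ± 0.20, adjusted p = 0.522), whose values are given above. With the same total per library, 1 gene was called in NUP93-KO (PSMD2, 0.22 ± 0.04, adjusted p = 0.0227) against 0.970% of all genes, and 2 in EXOSC5-KO (PSMD2, 0.15 ± 0.04, adjusted p = 0.0398, and PSMD7, 0.44 ± 0.08, adjusted p = 0.0145) against 4.88%.

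The response to triptolide was next compared between genotypes. The log2 fold change was nearer 0 than in NONT for all 31 proteasome genes in NUP93-KO and for all 31 in EXOSC5-KO, by a median of 0.68 and 0.48. None of these differences passed the limma test over all genes, which called 0.775% of genes for NUP93-KO and 0.333% for EXOSC5-KO, and adjusted p-values ran from 0.0690 to 0.116 and from 0.178 to 0.801. At an unadjusted p under 0.05, 31 genes differed for NUP93-KO, against 41.6% of all genes, and 6 for EXOSC5-KO, against 23.5%. The count turned on single control libraries, since it changed when replicate 1 of untreated or of treated NONT was left out. The shares of all genes called in those fits are not given, so the change cannot be read as particular to proteasome genes. The median over all genes was 0.74 and 0.57, so relative to it the proteasome medians were at −0.05 and −0.10. With the same total per library the proteasome medians were −0.09 and −0.07, with 27 and 23 of the 31 genes below 0. That scale takes out a difference common to all genes, so it cannot show whether this one holds. The scale with the same sum of mitochondrial mRNAs takes that sum as equal in all libraries, which was not tested. It moved the median over all genes from −1.62 to −1.28 in NONT, but from −0.92 to −1.22 in NUP93-KO and from −1.075 to −1.165 in EXOSC5-KO. It therefore cannot show whether the difference holds either. The proteasome medians were then 0.02 and 0.02, with 11 and 12 below 0, and the medians over all genes 0.09 and 0.13. Both comparisons use the same NONT libraries.

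The order of the genes was much the same in the 3 genotypes, whose responses come from separate libraries. Over the 31 genes, the log2 fold changes correlated with Pearson's r of 0.978 and a Spearman's rho of 0.924 between NONT and NUP93-KO, 0.945 and 0.895 between NONT and EXOSC5-KO, and 0.964 and 0.925 between the knockouts. Over all genes, which include many of lower abundance, rho was 0.830, 0.823 and 0.829. These are correlations across genes, which are not independent replicates and which share their transcript sequences and lengths between genotypes. In EXOSC5-KO, where the response differed from that of NONT by 0.48 in the median proteasome gene, the ends of the range were PSMD7, at 0.10, and PSMB3, at 0.88 ± 0.33 (adjusted p = 0.178). The difference of PSMD7 did not pass the test on the spike-in scale (adjusted p = 0.801) or with the same total (−0.44 ± 0.12, adjusted p = 0.267).

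Proteasome transcripts are short. Their median canonical length was 1540 nt, with 1004 nt for the core and 1754 nt for the cap, against 3448 nt over all tested genes. Their median 3′ UTR was 316 nt, with 160 nt for the core and 384 nt for the cap, against 1370 nt. Over the 31 genes, longer transcripts had deeper falls, at a Spearman's rho of −0.47 in NONT, −0.45 with the NUP93 guide and −0.50 with the EXOSC5 guide, against −0.19, −0.16 and −0.20 over all genes. Within the core rho was −0.23, −0.34 and −0.55 and within the cap −0.21, −0.34 and −0.23. The GC content of the transcript went with the response in the cap, at a rho of 0.76, 0.79 and 0.71 over 17 genes, and less so in the core, at 0.13, 0.30 and 0.56 over 14 genes. Over all genes rho with GC content was 0.01, 0.03 and 0.10. PSMC6 had the lowest GC content of the 31 transcripts, 36.4%, and PSMD12 the next lowest, 37.5%. PSMA5 was close to them at 37.9%, with responses relative to the median gene of 0.29, 0.33 and 0.21. PSMC2 of the cap, at 38.8%, was at 0.03, 0.25 and 0.22 relative to the median gene. Length, GC content and place in the complex are related among these genes, and their parts in the response were not tested.

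**Figure D4:**
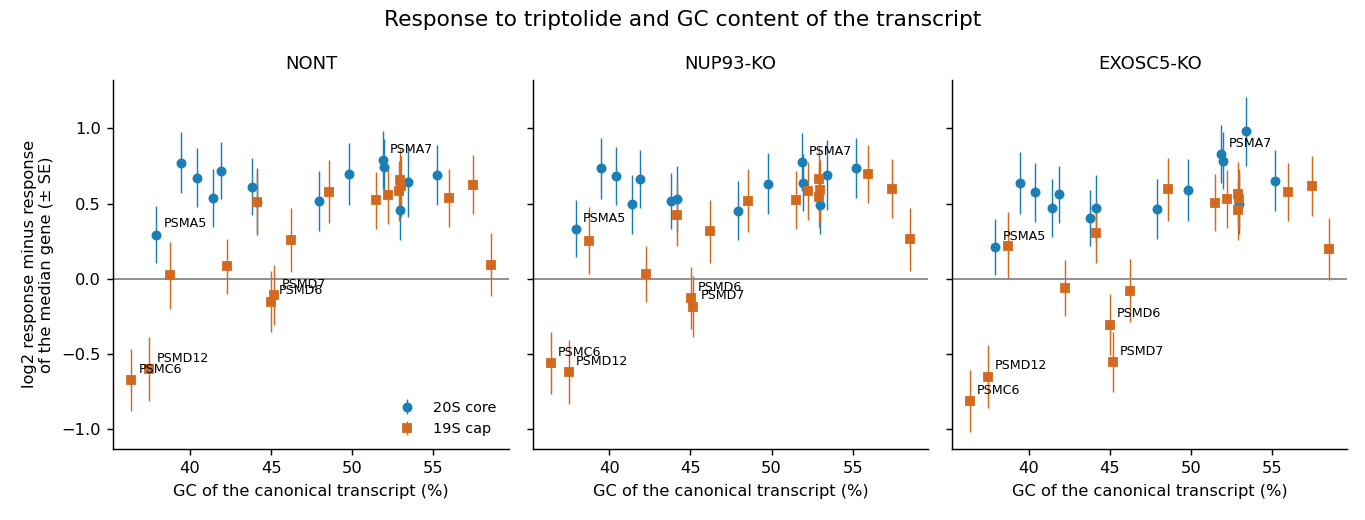
Response to triptolide relative to the median gene (log2, with the limma SE of the response) against the GC content of the canonical transcript in percent, for core genes (circles) and cap genes (squares) in each genotype. The cap genes of lowest GC content, PSMC6 and PSMD12, lie lowest, while PSMA5 of the core and PSMC2 of the cap, of similar GC content, stay above 0.

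Other genes of the pathway were counted from 8 lists of 45 genes in all, of which 43 were tested. After triptolide 42 were called lower in NONT, 28 of 43 in NUP93-KO and 31 of 43 in EXOSC5-KO. None was called higher, where 7, 19 and 11 of all 13811 genes were. Of all genes tested 90.0%, 55.1% and 64.3% were called lower, and the counts of each list below are to be read against these shares. The medians of the 43 genes lay above the median gene by 0.30, 0.30 and 0.23. They spread far more widely than the subunits. Of the cap subunits outside the 31 genes, SEM1 fell less than the median gene and ADRM1 more. SEM1, a small lid subunit, was at 1357 and 1848 against 1055 and 912.1 in NONT (−0.69). ADRM1, a ubiquitin receptor, was at 3723 and 5374 against 1072 and 855.4 (−2.22, and −1.37 and −1.56 in the knockouts). ADRM1 was called lower in all 3 genotypes and SEM1 in NONT alone, a difference between genotypes that did not pass the test.

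All 9 assembly chaperones were called lower in NONT and in EXOSC5-KO, and 8 of 9 in NUP93-KO. The deepest fall was that of PSMG3, which helps build the alpha ring, from 665.1 and 786.7 to 91.4 and 74.5 in NONT (−3.12), and the smallest that of POMP, the maturation factor of the core, from 564.6 and 666.5 to 284.2 and 290.5 (−1.09). PSMG3 thus fell by more than any of the 31 subunit mRNAs, and its log2 fold changes in NUP93-KO and EXOSC5-KO were −2.24 and −2.25. All 5 activators and inhibitors were called lower in NONT, 3 of 5 in NUP93-KO and 2 of 5 in EXOSC5-KO. Among them PSME2, a subunit of the PA28 regulator, had the smallest response in NONT (−0.73) and PSME4, the PA200 activator, the largest (−1.52).

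The transcription control list held NFE2L1 and NFE2L2, factors that act on antioxidant response elements, and enzymes that process NFE2L1. All 6 genes were called lower in NONT, 4 of 6 in NUP93-KO and 5 of 6 in EXOSC5-KO. NFE2L2 had the largest fall, at 736.6 and 1191 against 6.88 and 34.3 in NONT, at 769.1 and 902.7 against 57.2 and 40.3 in NUP93-KO and at 1085 and 970.3 against 54.4 and 82.4 in EXOSC5-KO (−5.81, −4.09 and −3.92). NFE2L1 had the smallest in NONT (−1.25, from 3591 and 5576 to 2260 and 1564), and it was at −0.17 in NUP93-KO, which did not pass, and −0.58 in EXOSC5-KO. NFE2L1 mRNA thus changed about as much as the mRNAs of the subunits, and NFE2L2 mRNA far more.

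Ubiquitin is made from 4 genes, all called lower in NONT, 1 of 4 in NUP93-KO and 2 of 4 in EXOSC5-KO. The smallest response in NONT was that of RPS27A, a fusion of ubiquitin and a ribosomal protein, at 12630 and 17700 against 10310 and 9128 (−0.62, with 0.07 and −0.17 in the knockouts, neither of which passed). Among 9 shuttle and p97 genes, 9, 6 and 7 were called lower, and the largest fall in NONT was that of ZFAND5, a proteasome-binding zinc finger protein, at −5.88. Of 5 enzymes and factors that bind the cap, 5, 4 and 5 were called lower, with ECPAS, a proteasome adaptor, at −2.43 and UBE3C, a ubiquitin ligase, at −0.69 in NONT.

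The 5 immunoproteasome and tissue-specific subunits had untreated means below the median of all genes tested, 345. The highest were 258 for PSMB10 and 118 for PSMB8. PSMA8 and PSMB11 did not pass the filter and were each at 0 in 11 of 12 libraries, and PSMB9, an inducible beta subunit, was between 0 and 16.7. PSMB8 fell in NONT (−1.80, from 89.6 and 129.5 to 28.8 and 31.8) and in NUP93-KO (−2.80, where the treated libraries were at 49.3 and 4.11), and PSMB10 fell in NONT (−0.59). The smallest response of the list was that of PSMB9, at −0.17 in NONT, which did not pass.

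**Figure D5:**
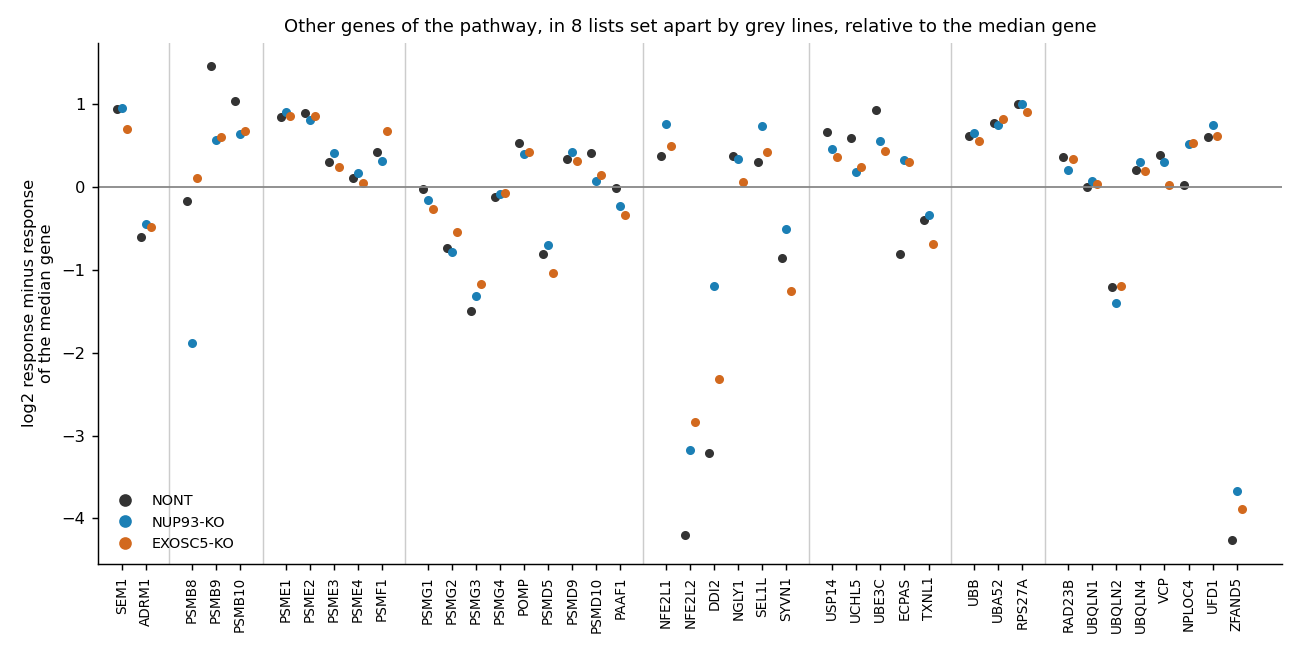
Log2 response to triptolide minus that of the median gene for 41 of the 43 tested genes of the other 8 lists, in list order and separated by grey lines, in NONT (black), NUP93-KO (blue) and EXOSC5-KO (orange). NFE2L2 and ZFAND5 lie farthest below the median gene in each genotype, and ECPAS lies below it in NONT and above it in both knockouts.

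Promoters of 26 of the 31 genes were found in the RefSeq table (GRCh38.p14), and the 250 bases before each start were searched on both strands. The antioxidant response element core TGACNNNGC, the motif at which NFE2L1 acts, was in 3 of 26 (11.5%), against 11% of 27305 promoters. CCAAT was in 13 (50% against 33.0%) and the GC box core GGGCGG in 18 (69.2% against 42.3%). The promoters compared were those of the whole RefSeq table, not of the genes tested here. Whether expressed genes in general have similar shares was not tested. A match is a description of the sequence, and no other motif was searched. The 3 matches to the element lay on chromosome 17, in PSMB3 of the core and PSMD3 and PSMD12 of the lid. They are shown in the direction of the gene, with the motif in capitals, to give its place and flanking bases, and their share is close to that of all promoters.
PSMB3, chr17:38752621-38752661, plus strand, 104 bases before the start: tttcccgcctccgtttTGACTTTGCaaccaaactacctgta
PSMD3, chr17:39980754-39980794, plus strand, 37 bases before the start: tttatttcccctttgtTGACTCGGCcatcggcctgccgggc
PSMD12, chr17:67366718-67366758, minus strand, 165 bases before the start: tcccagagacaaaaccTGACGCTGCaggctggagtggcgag
The log2 fold changes of these genes in NONT were −0.98 for PSMB3, −1.53 for PSMD3 and −2.22 for PSMD12.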

How the data were processed

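Per the study's methods and the labels, the authors lysed counted cells, added ERCC spike-in RNAs in proportion to cell number, quantified poly(A) RNA with kallisto 0.46.1 and tximport, kept protein-coding genes and scaled the estimated counts with DESeq2 size factors taken from the 92 ERCC transcripts. What they deposited is a signal per gene, normalised to the spike-in, which is neither a count nor corrected for length. A miscounted or mispipetted sample shifts every gene of its library alike. Only 11.8% to 23.8% of low values were whole multiples (tolerance 0.01) of the worth of 1 read, so no count model was used. Nothing says whether the replicates came from separate cultures, and p-values measure the spread between these libraries.

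The proteasome genes and the other lists were chosen with earlier results of these data known. IDs were matched to GENCODE release 44 (19584 of 22379; the rest held 2.21% of values). Genes with an untreated mean of at least 10 were tested on log2(value + 1), a scale that understates the change of low genes, with limma 3.58.1 in R 4.3.3 (6 group means, eBayes with trend, two-sided), adjusted by Benjamini-Hochberg over 13811 genes at 0.05; the fit was tested on simulated data. No test was made over the proteasome genes as a set. The relative response is a gene's log2 fold change minus the median of all tested genes. Lengths, GC content and 3′ UTRs are those of the canonical transcript. Full values were given for the catalytic subunits, for the largest and smallest fall in NONT of 5 subgroups (alpha ring, beta ring, ATPase ring, other base, lid), and for members past the threshold in the other contrasts; from the other lists, the largest and smallest fall in NONT and genes under the filter were named, and any gene outside this rule was named after its values were seen. A few genes of these lists are not reported here by name or in the figures, though the lists' counts include them. Same-numbered libraries did not deviate together (r of −0.05 to 0.04 over 15 pairs of groups). Alternatives were other scales, pseudocounts, filters, no trend, a replicate block, transcript lengths and leaving out each library. Python 3.11.15, pandas 2.3.3 and matplotlib 3.10.9 were used.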

Additional observations from a re-analysis of the deposited data

Results flagged for a closer look

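Among the other genes of the pathway, ECPAS, an adaptor that binds the cap, was the one whose response differed between genotypes by the test of the difference itself. It was at 908.6 and 1492 in untreated NONT and 235.8 and 197.5 in treated NONT, at 823.3 and 857.8 against 605.9 and 511.5 in NUP93-KO, and at 1032 and 742.2 against 512.9 and 505.0 in EXOSC5-KO. The response in NUP93-KO minus that in NONT was 1.83 on the log2 scale (limma adjusted p = 0.0292), and that in EXOSC5-KO minus NONT 1.65 (adjusted p = 0.0504). For NUP93-KO the adjusted p was 0.171 with the same total per library, 0.142 with median of ratios and 0.122 without replicate 2 of untreated NONT, and it ranged from 0.00343 to 0.222 over the alternatives, with the difference above 1.06 in each.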

How the results depend on the processing

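The calls moved with the scale of the libraries. With the same total per library, 6, 5 and 6 proteasome genes were called lower after triptolide in the order NONT, NUP93-KO, EXOSC5-KO, and with median of ratios 2, 3 and 4. Both take out most of a change common to all genes. The median over all genes was −0.04 to −0.02 with median of ratios and −0.36 to −0.29 with the same total. With the same sum of mitochondrial mRNAs it was 31 in NUP93-KO. Without the trend in limma, 15 were called lower in EXOSC5-KO. The shares of all genes called with median of ratios, with the mitochondrial sum and without the trend are not given. Leaving out 1 library at a time gave 31 genes each time in NONT, 5 to 22 in NUP93-KO, 10 to 29 in EXOSC5-KO, and for the difference in response 0 to 31 in NUP93-KO and 0 to 29 in EXOSC5-KO. In these fits the lone sample of a group was assumed to vary like the others. In untreated cells, the same total gave 1 call with the NUP93 guide and 2 with the EXOSC5 guide, and median of ratios 1 in EXOSC5-KO.

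The median response relative to the median gene stayed above 0 under all alternatives: it was 0.42 in NONT and 0.43 in EXOSC5-KO with a pseudocount of 5, and with no filter, which adds low genes to the median, 0.23 in NONT, 0.31 with the NUP93 guide and 0.27 with the EXOSC5 guide. PSMA5 then lay at −0.010 in NONT and −0.017 in EXOSC5-KO, below the median gene. The core minus cap response ranged over 0.13 to 0.20 in NONT, 0.15 to 0.26 with the NUP93 guide and 0.19 to 0.30 with the EXOSC5 guide when single libraries were left out, and the level per kb in untreated NONT was 0.42 with the median transcript length, against 0.70.

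With the replicate block, 31 genes were called lower in NONT, 9 with the NUP93 guide and 22 with the EXOSC5 guide, and 0 in the other contrasts. The shares of all genes called in that fit are not given. The numbers did not pair the samples. Precision is limited by the 2 libraries of each group.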
